A study of Mus musculus with 6 samples.

Results

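The interferon-stimulated genes described here are a fixed list of 45 mouse genes, found by exact match of the gene symbol, and 43 of them had a row among the 32285 genes of the count matrices. Mx1 and Mx2 were not analysed here. The list was read in lung cells of TNF-Tg mice, which carry a TNF transgene and develop inflammatory arthritis with pulmonary hypertension, and of WT mice. Lungs of several females were pooled per library and sorted as 7-AAD-/CD45-/CD326-, which selects live cells outside the hematopoietic and epithelial lineages. Each genotype gave 1 library at 8 weeks, 1 at 14 weeks and 1 at 20 weeks by droplet 3′ RNA sequencing. The transgene's own transcript was not analysed here. The 3 ages served as the replicates of each genotype, so the spread between libraries includes age, and a p-value measures the spread between these 6 pooled libraries rather than between mice.

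Interferons are secreted proteins that signal through paired surface receptors to JAK kinases and STAT factors. Type I and type III interferons act through a complex that includes Stat2 and Irf9 and binds the interferon-stimulated response element (ISRE), whereas interferon gamma acts mainly at the gamma-activated site (GAS). The induced genes encode nucleic acid sensors, antiviral effectors, GTPases directed against intracellular microbes, and antigen presentation proteins, and TNF is known to induce some of them through NF-κB and Irf1.

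The 6 libraries held 43545 barcodes, of which 36254 cells (18430 WT and 17824 TNF-Tg) were kept. The libraries held 33680696 to 72655387 UMIs and shared 6 to 24 barcodes between any pair. Depth per cell differed by genotype, with a median of 4362 to 4673 unique molecular identifiers (UMIs) per kept cell in WT and 9069 to 9687 in TNF-Tg libraries. Clusters were drawn without the listed genes and named by their markers, and 8 main classes carried the comparisons. These were general capillary endothelium (gCAP-like, 17722 cells), aerocyte capillary endothelium (aCAP-like, 3595), arteriovenous endothelium (A/V-like, 2798), vascular smooth muscle (VSMC-like, 1379), Col14+ (1033) and Col13+ (997) fibroblast-like cells, mesothelial-like cells (767) and myofibroblast-like cells (737). The 5 clusters left unnamed held 4976 cells (13.7%). Despite the sort, 912 immune-like cells were present, 755 of them from the TNF-Tg library of 20 weeks.

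Short stretches upstream of 8 members whose values are described below were read first, since they show the element that many members share (RefSeq promoters, GRCm38.p6, 250 bases before to 50 after the start site). The capitals mark matches to the core of the ISRE, searched as a pair of GAAA with any 2 bases between them or, on the other strand, a pair of TTTC with any 2 bases between them, including matches that overlap. They lie at chr11:58199496-58199555 on the plus strand (Igtp), chr3:142530258-142530317 on the plus strand (Gbp7), chr10:128270251-128270310 on the plus strand (Stat2), chr5:120907526-120907585 on the minus strand (Oas1a), chr4:156200850-156200909 on the minus strand (Isg15), chr8:71537562-71537621 on the minus strand (Bst2), chr19:34640779-34640838 on the plus strand (Ifit1) and chr19:34583382-34583441 on the plus strand (Ifit3).
Igtp: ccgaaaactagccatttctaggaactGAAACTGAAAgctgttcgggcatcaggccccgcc
Gbp7: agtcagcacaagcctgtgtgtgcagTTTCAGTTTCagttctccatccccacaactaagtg
Stat2: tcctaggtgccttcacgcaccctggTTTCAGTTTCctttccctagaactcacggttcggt
Oas1a: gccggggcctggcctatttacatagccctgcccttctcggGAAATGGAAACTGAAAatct
Isg15: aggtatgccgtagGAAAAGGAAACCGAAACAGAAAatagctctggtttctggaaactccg
Bst2: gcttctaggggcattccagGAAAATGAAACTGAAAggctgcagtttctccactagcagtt
Ifit1: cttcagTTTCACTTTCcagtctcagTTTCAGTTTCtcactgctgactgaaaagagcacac
Ifit3: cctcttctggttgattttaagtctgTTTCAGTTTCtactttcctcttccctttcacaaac
The ISRE core was found in the promoters of 21 of the 33 members with a promoter sequence (63.6%) and in 3.99% of all 27025 genes with one. The GAS core TTCNNNGAA, which reads the same on both strands, was found in 11 of the 33 members (33.3%) and in 9.55% of all genes. Dhx58, Oas2, Usp18, Rtp4, Gbp4, Gbp6, Gbp9, Iigp1, Parp14, Zbp1, Mx1 and Mx2 had no matched promoter. Ifit3b carried the same promoter stretch as Ifit3 over 60 of 60 bases. Whether reads of these related genes can be told apart was not tested, so the counts of Ifit3 and Ifit3b are uncertain. A motif match describes the sequence only and was not read as a bound site.

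Among the 8 main classes in WT lungs, most members were highest in endothelial ones. Of the 43 members, 19 had their highest mean level, in UMIs scaled to a common total per class (CPM), in gCAP-like cells, 14 in A/V-like, 5 in aCAP-like, 4 in mesothelial-like and 1 in Col13+ fibroblast-like cells. In TNF-Tg lungs the order was different, with 14 members highest in mesothelial-like, 13 in gCAP-like, 9 in aCAP-like, 5 in A/V-like and 2 in Col13+ fibroblast-like cells. No member was highest in VSMC-like, Col14+ fibroblast-like or myofibroblast-like cells in either genotype. Smaller classes, left out of this ranking, were higher for some groups of members. The OAS family and RNA-acting enzymes summed to 253, 496 and 625 CPM in WT immune-like and 329, 298 and 331 CPM in WT epithelial-like cells, above the 225, 228 and 235 CPM of WT gCAP-like cells.

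The summed level of 41 members, leaving out Ifitm2 and Ifitm3 because they alone make up a large share of the sum, was 3819 ± 83.1 CPM in WT and 3171 ± 361 in TNF-Tg gCAP-like cells (mean ± SD, n = 3 libraries each), and the genotypes did not overlap. In A/V-like cells it was 3540 ± 244 and 2790 ± 734 CPM, and the TNF-Tg library of 8 weeks lay inside the WT range there. It was higher in TNF-Tg in 3 classes without overlap of the libraries, namely Col13+ fibroblast-like cells (1104 ± 63.2 against 1666 ± 44.8 CPM), myofibroblast-like cells (914 ± 65.8 against 1696 ± 139) and mesothelial-like cells (2063 ± 472 against 2832 ± 178). In aCAP-like cells the sums were 2451 ± 272 and 2967 ± 244 CPM, in VSMC-like cells 984 ± 270 and 1054 ± 82.5, and in Col14+ fibroblast-like cells 1102 ± 137 and 1268 ± 292, and the libraries of the genotypes overlapped in all 3 classes. Over all 43 members, Ifitm2 and Ifitm3 included, the picture changed in 2 classes. In Col13+ fibroblast-like cells the libraries then overlapped (3948 to 4536 CPM in WT and 4345 to 4911 in TNF-Tg), whereas in aCAP-like cells they did not (3561 to 4062 in WT and 4324 to 5078 in TNF-Tg). These sums are descriptions and were not tested.

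**Figure D1:**
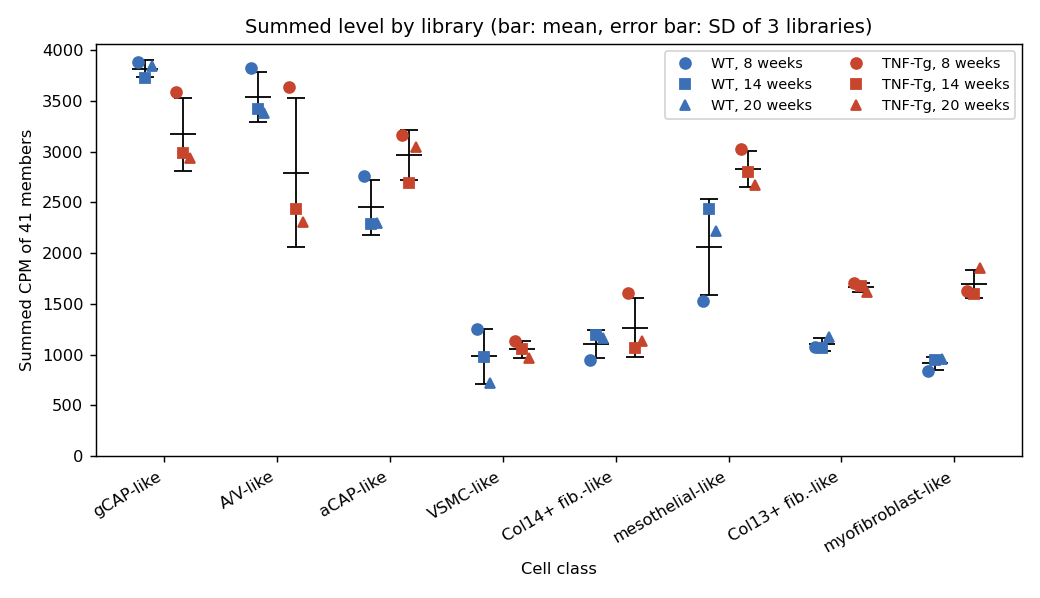
Summed level of 41 interferon-stimulated genes (y axis, CPM) in each of 8 cell classes (x axis), one point per library with color for genotype and shape for age, and bars for mean and SD of 3 libraries. The TNF-Tg points lie below the WT points in gCAP-like cells and above them in Col13+ fibroblast-like, mesothelial-like and myofibroblast-like cells.

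Each member was then tested in each class on UMIs summed per library (TNF-Tg against WT, 3 libraries each, edgeR quasi-likelihood test with Benjamini-Hochberg adjustment over all genes of the class, called below 0.05). Over the 8 main classes, 21 members were called higher in TNF-Tg in at least 1 class, 18 were called lower in at least 1 class, 7 were called in both directions, and 11, among them the untested Oas3, were called in no class. Of all 14067 genes tested in at least 1 of these classes, 29.5% were called higher in at least 1, 28.6% lower in at least 1, 4.05% in both directions and 46% in none. The 7 members with opposite calls were Irf1, Ifit2, Ifi47, Gbp5, Iigp1, Ifitm2 and Samhd1. Calls were unequal in direction between classes, with most calls in gCAP-like and A/V-like cells toward lower levels and most calls in aCAP-like, Col13+ fibroblast-like and myofibroblast-like cells toward higher levels in TNF-Tg.

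**Figure D2:**
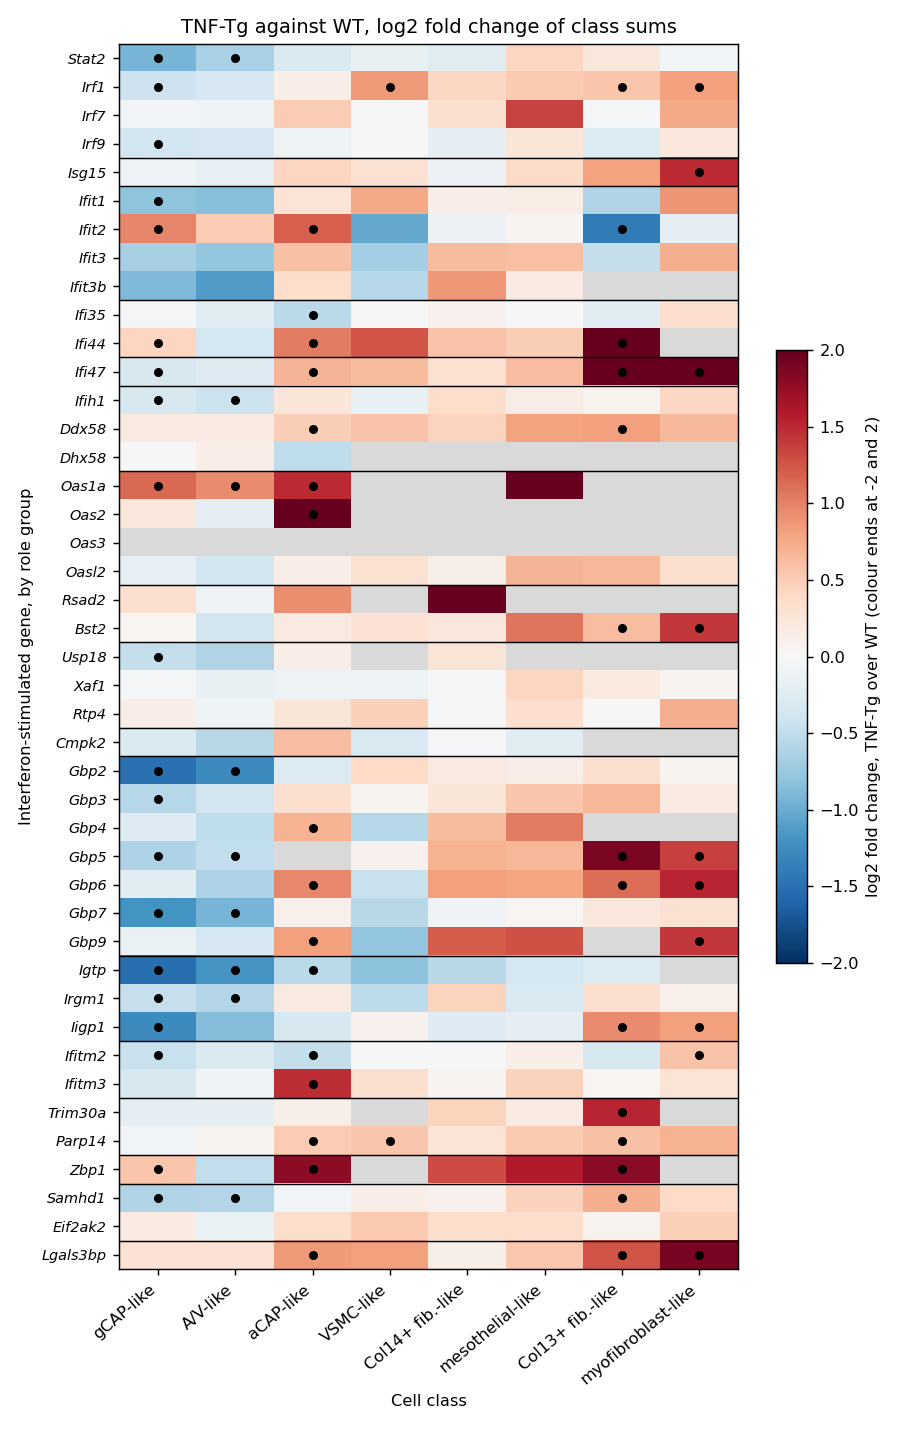
Log2 fold change, TNF-Tg over WT (color, ending at -2 and 2), of 43 members (rows, by role group) in 8 cell classes (columns), with a dot where the difference was called by edgeR and grey where a member was not tested. Blue prevails in the gCAP-like and A/V-like columns, and red in the Col13+ fibroblast-like, myofibroblast-like and aCAP-like columns.

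In gCAP-like cells, the members with the largest changes were guanylate-binding proteins and immunity-related GTPases, which act on the vacuoles of intracellular microbes, and they were lower in TNF-Tg. Of 42 members tested, 16 were lower and 4 were higher, where 20.9% and 22.0% of all 12819 genes tested were called in these directions. The median log2 fold change was -0.23 over the members and -0.01 over all genes. The share of members called lower, 38.1%, lay above that of all genes, and the share called higher, 9.52%, lay below it. Oas3, with few UMIs, was not tested. The class joined several clusters, among them one led by Esm1 and Prnd (121 WT and 571 TNF-Tg cells). Another, whose leading genes include Glp1r and Kit, held 3419 WT and 2048 TNF-Tg cells. A capillary cluster of 4471 cells was left unnamed and lies outside the class. The part of these unequal shares in the differences was not tested.

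Gbp2 was at 133, 151 and 147 CPM in WT libraries, compared with 59.1, 45.5 and 48.8 CPM in those of TNF-Tg (-1.49 on the log2 scale with SE 0.103, edgeR adjusted p = 0.00025). Gbp7 stood at 259, 268 and 261 CPM in WT libraries, compared with 142, 102 and 100.7 CPM in those of TNF-Tg (-1.19 on the log2 scale with SE 0.129, edgeR adjusted p = 0.000851). Gbp5 was at 25.5, 29.8 and 27.5 CPM in WT libraries, compared with 19, 14.7 and 19.8 CPM in those of TNF-Tg (-0.62 on the log2 scale with SE 0.129, edgeR adjusted p = 0.00809). The WT and TNF-Tg libraries did not overlap for any of these 3 guanylate-binding proteins. Along with Gbp3 (log2 fold change -0.57), which was also lower, they lie on chromosome 3 between positions 142493978 and 142638008 (GENCODE, GRCm38), and all 4 listed genes of this block fell. The members of the other block, Gbp4, Gbp6 and Gbp9 on chromosome 5, were not called, with log2 fold changes of -0.26, -0.21 and -0.13. Gbp4 stood at 166, 109 and 125 CPM in WT as opposed to 160.2, 96.2 and 79.9 CPM in TNF-Tg, and the genotypes overlapped. Gbp4 and Gbp9 overlap on the same strand, so their counts are uncertain.

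Igtp was at 83.8, 78.2 and 62 CPM in WT libraries, compared with 31.3, 22.6 and 24.9 CPM in those of TNF-Tg (-1.51 on the log2 scale with SE 0.158, edgeR adjusted p = 0.00078). Iigp1 stood at 238, 195 and 174 CPM in WT libraries, compared with 104, 65.4 and 83.1 CPM in those of TNF-Tg (-1.27 on the log2 scale with SE 0.189, edgeR adjusted p = 0.00237). Irgm1 was at 79.6, 78.2 and 75.3 CPM in WT libraries, compared with 70.6, 47.1 and 51.3 CPM in those of TNF-Tg (-0.46 on the log2 scale with SE 0.138, edgeR adjusted p = 0.031). All TNF-Tg libraries lay below all WT libraries for these 3 GTPases. Ifi47, the fourth GTPase of this kind on the list, was at 135, 142 and 147 CPM in WT as opposed to 134, 101.5 and 103 CPM in TNF-Tg (-0.32 on the log2 scale with SE 0.107, edgeR adjusted p = 0.046), and the TNF-Tg library of 8 weeks lay just below the WT range.

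Among the transcription factors, Stat2 stood at 58, 61.7 and 54.9 CPM in WT as opposed to 34.3, 28.7 and 28.8 CPM in TNF-Tg (-0.92 on the log2 scale with SE 0.0895, edgeR adjusted p = 0.00062). Irf9, the DNA-binding partner of Stat2, was at 60.4, 67.2 and 61.8 in WT against 55, 45.5 and 45.4 CPM in TNF-Tg (-0.37 on the log2 scale with SE 0.0868, edgeR adjusted p = 0.0127). Irf1, which interferon gamma and TNF both induce in many cell types, was at 165, 206 and 189 in WT against 151, 150.2 and 119.9 CPM in TNF-Tg (-0.41 on the log2 scale with SE 0.113, edgeR adjusted p = 0.0238). These 3 factors were lower in every TNF-Tg library than in any WT library. Irf7, the amplifier of type I interferon, was not called (log2 fold change -0.06).

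Members of a single family moved in opposite directions. Ifit1, which binds foreign RNA, was at 64.7, 65.8 and 59.7 CPM in WT as opposed to 48.1, 24.4 and 36 CPM in TNF-Tg (-0.81 on the log2 scale with SE 0.213, edgeR adjusted p = 0.0199), whereas Ifit2 was at 11, 7.08 and 11.8 in WT against 17.9, 20.9 and 19.7 CPM in TNF-Tg (0.98 on the log2 scale with SE 0.192, edgeR adjusted p = 0.00656). Ifit3 (59.9, 44.5 and 43.6 against 43, 20 and 30.8 CPM, edgeR adjusted p = 0.0818) and Ifit3b (26.9, 21.5 and 16.8 against 16.4, 7.15 and 11.8 CPM, edgeR adjusted p = 0.0512) were not called. Thus Ifit2 was above the WT range in all 3 TNF-Tg libraries while Ifit1 was below it. Oas1a, which makes the activator of RNase L, was at 6.55, 6.38 and 7.47 CPM in WT as opposed to 17.6, 15.7 and 11.9 CPM in TNF-Tg (1.15 on the log2 scale with SE 0.156, edgeR adjusted p = 0.00173) and so moved up, as did Zbp1, a sensor of Z-form nucleic acids, at 23.2, 22.5 and 23.5 in WT against 37, 34.1 and 29.9 CPM in TNF-Tg (0.55 on the log2 scale with SE 0.084, edgeR adjusted p = 0.00256). Ifi44 was the other member called higher (log2 fold change 0.43).

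The RNA sensor Ifih1 (MDA5) was lower, at 58.1, 58.5 and 65.8 CPM in WT as opposed to 52.7, 49.1 and 43.3 CPM in TNF-Tg (-0.33 on the log2 scale with SE 0.0826, edgeR adjusted p = 0.017), whereas Ddx58 (RIG-I) was not called (59.5, 70.6 and 69.4 against 80.4, 72.6 and 70.9 CPM, log2 fold change 0.17). Among enzymes that act on nucleic acids or nucleotides, Samhd1 was at 85.7, 97.8 and 86.5 in WT against 68.5, 53.7 and 55.1 CPM in TNF-Tg (-0.6 on the log2 scale with SE 0.102, edgeR adjusted p = 0.00378). Eif2ak2 (PKR) at 43.1, 40.5 and 42.9 in WT against 47.3, 48.1 and 46 CPM in TNF-Tg and Oasl2 at 80.8, 70.7 and 80.3 in WT against 87.5, 57.2 and 61.9 CPM in TNF-Tg were not called. Samhd1 therefore separated the genotypes, while Oasl2 overlapped between them.

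The membrane proteins that block virus entry were the most abundant members by UMIs. Ifitm2 was at 1291, 1209 and 1273 CPM in WT as opposed to 1089, 819 and 848 CPM in TNF-Tg (-0.45 on the log2 scale with SE 0.12, edgeR adjusted p = 0.0209), and Ifitm3 was at 2739, 2635 and 2834 in WT against 2549, 2116 and 1887 CPM in TNF-Tg (-0.32 on the log2 scale with SE 0.119, edgeR adjusted p = 0.0621), which did not pass the threshold. Bst2 (tetherin), which holds budding viruses at the cell surface, was at 792, 693 and 818 in WT against 824, 788 and 758 CPM in TNF-Tg and overlapped between genotypes. Isg15, a ubiquitin-like protein and one of the classical interferon-induced genes, was at 157, 149.5 and 139 in WT against 167, 118 and 134 CPM in TNF-Tg, with a log2 fold change of -0.09. Xaf1 at 123, 117 and 122 in WT against 139, 108 and 104 CPM in TNF-Tg and Parp14 at 150.02, 166 and 183 in WT against 165, 156 and 158 CPM in TNF-Tg were not called either. Usp18, which removes Isg15 from proteins and restrains the type I receptor, was lower (log2 fold change -0.47).

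The count of members lower in gCAP-like cells ranged from 9 to 23 when 1 library was left out in turn. It was 23 without the TNF-Tg library of 8 weeks, when 4 were higher (23.1% and 25.8% of all genes were then lower and higher), and leaving out the WT or the TNF-Tg library of 14 or 20 weeks gave 9 or 10. In the 5 fits that kept the TNF-Tg library of 8 weeks, 13.5% to 16.2% of all genes were lower. Stat2, Gbp2, Gbp3, Gbp5, Gbp7, Igtp, Iigp1 and Samhd1 stayed called in all 6 such fits, as did the 4 members that were higher. The 12 immune markers summed to 70.3 to 85.5 CPM in WT and 124 to 264 CPM in TNF-Tg gCAP-like cells, with 7 to 9 markers detected in WT and 11 or 12 in TNF-Tg, and Ptprc (CD45) was at 0 to 0.243 CPM in WT and 0.0356 to 4.49 CPM in TNF-Tg. Without the cells that carried any immune marker UMI, 11 members were lower and 4 were higher. The share of all genes called without these cells is not given here for any class, so such counts have no background beside them.

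**Figure D3:**
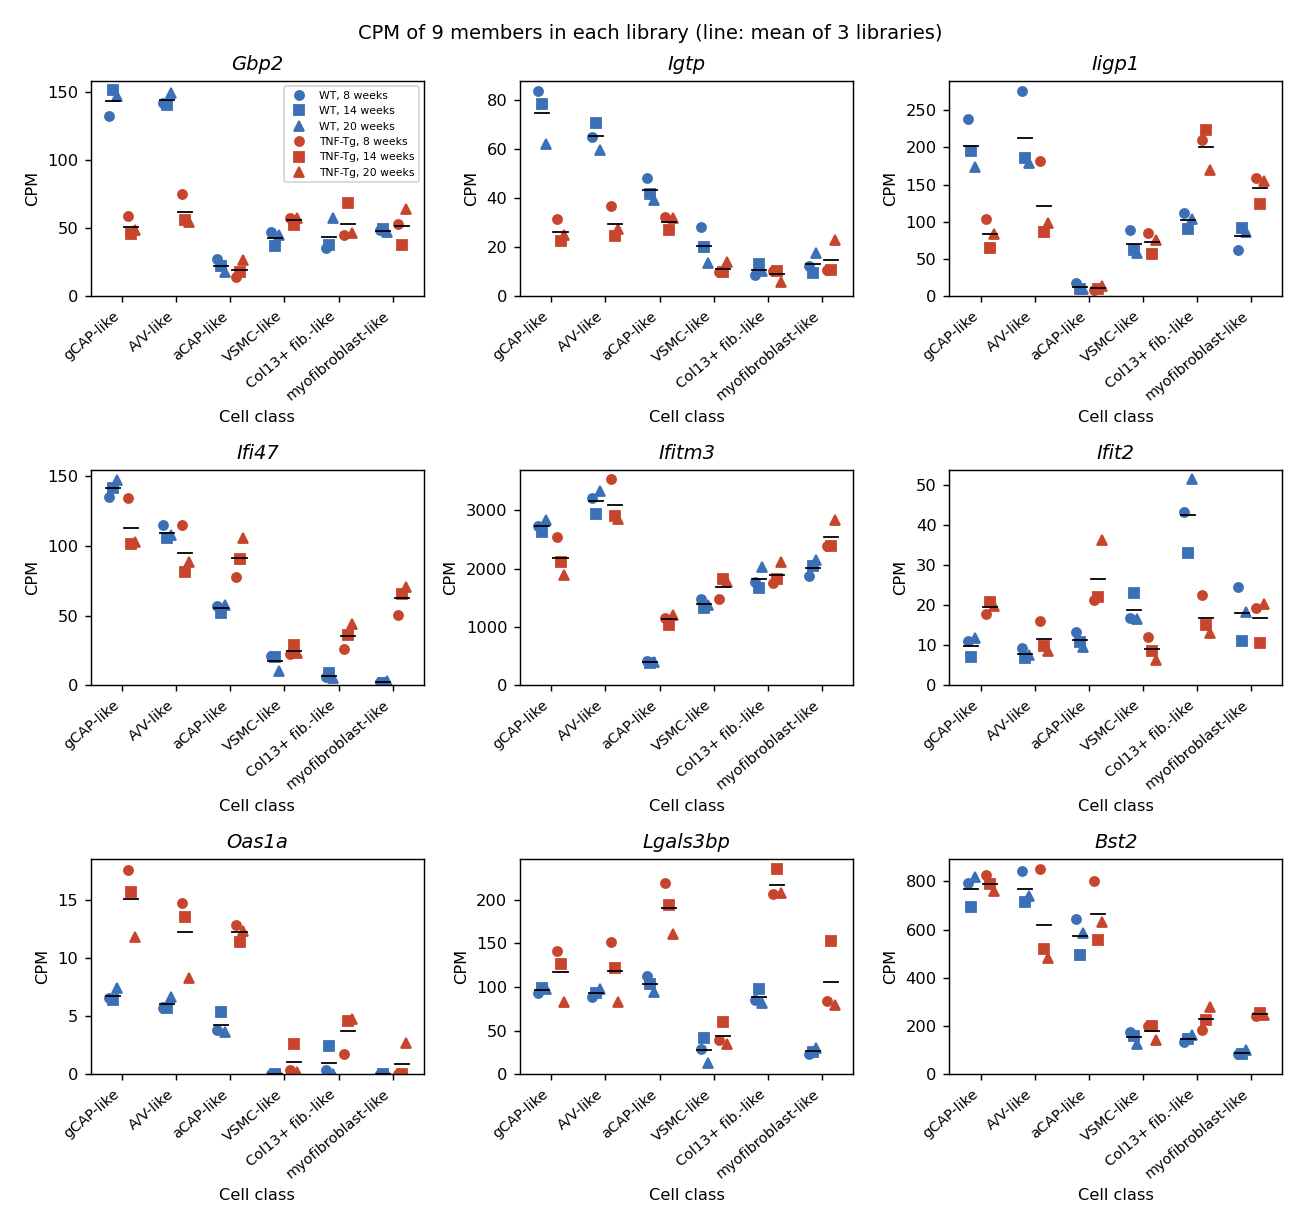
Level of 9 members (y axis, CPM, separate scales) in 6 cell classes (x axis), one point per library with color for genotype and shape for age, and a line at the mean of 3 libraries. Gbp2 and Igtp are separated downward in gCAP-like and A/V-like cells, Ifitm3 upward in aCAP-like cells, and Ifi47 upward in Col13+ fibroblast-like and myofibroblast-like cells.

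A/V-like cells, the endothelium of larger vessels, had guanylate-binding proteins and Igtp lower in TNF-Tg, while Iigp1 was not called (log2 fold change -0.86, edgeR adjusted p = 0.0586). Of 42 members tested, 8 were lower and 1 was higher, against 10.1% and 11% of all genes tested, and the median log2 fold change was -0.34 over the members and -0.01 over all genes. Gbp2 was at 142, 140.4 and 149.5 CPM in WT libraries, compared with 75, 56 and 54.3 CPM in those of TNF-Tg (-1.27 on the log2 scale with SE 0.127, edgeR adjusted p = 0.000513). Igtp stood at 65.1, 70.5 and 59.7 CPM in WT libraries, compared with 36.6, 24.4 and 27.4 CPM in those of TNF-Tg (-1.19 on the log2 scale with SE 0.148, edgeR adjusted p = 0.00143). Gbp7 was at 183, 202 and 194 CPM in WT libraries, compared with 132, 97.1 and 85.5 CPM in those of TNF-Tg (-0.93 on the log2 scale with SE 0.146, edgeR adjusted p = 0.00348). For each of these 3 genes, all TNF-Tg libraries lay below all WT libraries. The class joined a cluster led by Slc6a2 and Vwf (935 WT and 606 TNF-Tg cells) with one whose leading genes include Bmx and Gja5 (553 and 704 cells), and the part of these unequal shares in the differences was not tested.

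The other members called lower were Stat2, Ifih1, Irgm1, Gbp5 and Samhd1. Gbp5 was at 45.4, 50.9 and 43.4 CPM in WT as opposed to 42.1, 31.7 and 29 CPM in TNF-Tg (-0.49 on the log2 scale with SE 0.143, edgeR adjusted p = 0.0408). Samhd1 was at 71.5, 86.1 and 73.6 in WT against 67.2, 45.7 and 45.6 CPM in TNF-Tg (-0.59 on the log2 scale with SE 0.157, edgeR adjusted p = 0.0293). Both genes separated the genotypes, with the TNF-Tg library of 8 weeks closest to WT. Oas1a was higher, at 5.72, 5.76 and 6.66 CPM in WT as opposed to 14.8, 13.6 and 8.33 CPM in TNF-Tg (0.95 on the log2 scale with SE 0.268, edgeR adjusted p = 0.0373).

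The A/V-like count rested strongly on the TNF-Tg library of 8 weeks. Without that library 29 members were lower and 0 higher (14.3% and 15.3% of all genes), and without any other single library 3 were lower, namely Gbp2, Gbp7 and Igtp (4.86% to 6.64% of all genes). Oas1a lost its call under DESeq2 and without any library other than the TNF-Tg library of 20 weeks, in whose absence 2 members were higher. The immune markers summed to 39.3 to 55.1 CPM in WT and 84.6 to 124 CPM in TNF-Tg A/V-like cells, and 4 members were lower and 0 higher without the cells that carried them.

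aCAP-like cells, the large capillary cells specialized in gas exchange, showed the opposite balance. Of 41 members tested, 13 were higher and 3 were lower in TNF-Tg, against 12.6% and 10.7% of all genes tested, and the median log2 fold change was 0.32 over the members and 0.00 over all genes. The class joined clusters led by Ednrb (969 WT and 789 TNF-Tg cells), Chst1 (694 and 652) and AW112010 (208 and 283). The part of these unequal shares in the differences was not tested. Ifitm3 was at 411, 385 and 396 CPM in WT libraries, compared with 1155, 1026 and 1212 CPM in those of TNF-Tg (1.48 on the log2 scale with SE 0.115, edgeR adjusted p = 4.46e-06). The 3 TNF-Tg libraries thus stood well above the 3 WT libraries, in contrast to the related Ifitm2, which was at 886, 888 and 989 CPM in WT as opposed to 763, 605 and 661 CPM in TNF-Tg (-0.47 on the log2 scale with SE 0.124, edgeR adjusted p = 0.0158).

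Oas1a was at 3.79, 5.37 and 3.62 CPM in WT libraries, compared with 12.8, 11.4 and 12.4 CPM in those of TNF-Tg (1.5 on the log2 scale with SE 0.246, edgeR adjusted p = 0.00101). Ifit2 stood at 13.4, 10.7 and 9.46 CPM in WT libraries, compared with 21.2, 22.1 and 36.3 CPM in those of TNF-Tg (1.19 on the log2 scale with SE 0.237, edgeR adjusted p = 0.00367). Ifi47 was at 56.9, 51.9 and 57.9 CPM in WT libraries, compared with 77.4, 90.6 and 106 CPM in those of TNF-Tg (0.68 on the log2 scale with SE 0.128, edgeR adjusted p = 0.00248). Each of these 3 members was higher in every TNF-Tg library than in any WT library. The largest fold change was that of Oas2, another activator of RNase L (log2 fold change 2.96), at 0.758, 1.79 and 0.557 CPM in WT as opposed to 3.79, 10 and 11.6 CPM in TNF-Tg. The remaining members called higher were Zbp1 (1.8), Ifi44 (1.03), Gbp6 (0.97), Lgals3bp (0.85), Gbp9 (0.82), Gbp4 (0.7), Parp14 (0.51) and Ddx58 (0.5), with log2 fold changes in parentheses. The 3 guanylate-binding proteins among them are those of the chromosome 5 block, whereas no listed gene of the chromosome 3 block was called in aCAP-like cells (Gbp2 -0.27, Gbp3 0.32, Gbp7 0.1, and Gbp5 not tested).

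Lower in aCAP-like cells were Igtp, at 48.3, 41.7 and 39.2 CPM in WT as opposed to 32.1, 27 and 31.9 CPM in TNF-Tg (-0.53 on the log2 scale with SE 0.135, edgeR adjusted p = 0.0132), Ifi35, at 179, 159 and 181 in WT against 144, 96.9 and 122 CPM in TNF-Tg (-0.54 on the log2 scale with SE 0.145, edgeR adjusted p = 0.0184), and Ifitm2. All 13 members that were higher except Ddx58 stayed called with any 1 library left out, and none of the 3 that were lower did, whose count fell to 1 without the WT library of 8 or 20 weeks or the TNF-Tg library of 20 weeks. The immune markers summed to 63.5 to 74.3 CPM in WT and 97.4 to 161 CPM in TNF-Tg aCAP-like cells. Without the cells that carried them, 12 members were higher and 2 were lower.

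In Col13+ fibroblast-like cells, the lipofibroblast-type population, 13 of 33 members tested were higher and 1 was lower in TNF-Tg, against 7.88% and 6.02% of all genes tested. The median log2 fold change was 0.32 over the members and 0.01 over all genes. At 8, 14 and 20 weeks, the class held 401, 229 and 173 cells in WT and 59, 67 and 68 in TNF-Tg. The study reports that the Inmt-expressing subset of these fibroblasts was mostly lost in TNF-Tg lungs, and that Adh7 was preferred in those remaining. The part of such a shift in the differences below was not tested. Ifi44 was at 1.11, 0.622 and 2.24 CPM in WT libraries, compared with 19.1, 15.1 and 25 CPM in those of TNF-Tg (3.86 on the log2 scale with SE 0.456, edgeR adjusted p = 0.000242). Ifi47 stood at 6.28, 8.71 and 5.22 CPM in WT libraries, compared with 26, 35.9 and 44 CPM in those of TNF-Tg (2.37 on the log2 scale with SE 0.3, edgeR adjusted p = 0.000357). Gbp5 was at 3.69, 6.85 and 5.97 CPM in WT libraries, compared with 13.9, 29 and 15.5 CPM in those of TNF-Tg (1.89 on the log2 scale with SE 0.392, edgeR adjusted p = 0.00731). WT levels of these 3 members were low, and all TNF-Tg libraries lay above them.

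Members with higher WT levels rose as well. Iigp1 was at 112, 90.9 and 104 CPM in WT as opposed to 209.8, 224 and 169.96 CPM in TNF-Tg (0.95 on the log2 scale with SE 0.153, edgeR adjusted p = 0.00153), Samhd1 at 45.1, 55.4 and 41 in WT against 83.2, 95 and 61.8 CPM in TNF-Tg (0.73 on the log2 scale with SE 0.196, edgeR adjusted p = 0.0276), and Irf1 at 41, 47.9 and 44 in WT against 69.3, 68.4 and 61.8 CPM in TNF-Tg (0.56 on the log2 scale with SE 0.16, edgeR adjusted p = 0.0377). These 3 genes were lower in TNF-Tg gCAP-like cells. Trim30a, Zbp1, Lgals3bp, Gbp6, Ddx58, Bst2 and Parp14 were also higher, with log2 fold changes from 0.59 (Parp14) to 1.8 (Zbp1). Ifit2 ran the other way, at 43.2, 33 and 51.5 CPM in WT as opposed to 22.5, 15.1 and 13.1 CPM in TNF-Tg (-1.4 on the log2 scale with SE 0.27, edgeR adjusted p = 0.00476), with no overlap.

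Leaving out the WT library of 8 weeks or the TNF-Tg library of 14 weeks left 6 members higher, leaving out the WT library of 14 weeks left 8, and Ifi44, Ifi47, Ddx58, Iigp1, Zbp1 and Lgals3bp stayed called in every such fit, as did Ifit2. The immune markers summed to 2.24 to 12.9 CPM in WT and 57.1 to 83.5 CPM in TNF-Tg Col13+ fibroblast-like cells, while Ptprc was at 0 CPM in all 6 libraries, and the 6 megakaryocyte markers summed to 3.73 to 5.17 and 10.7 to 19.7 CPM. Without the cells that carried an immune marker UMI, 8 members were higher and 1 was lower. That setting kept 374 of 401, 222 of 229 and 170 of 173 WT cells at 8, 14 and 20 weeks. It kept 44 of 59, 48 of 67 and 36 of 68 TNF-Tg cells.

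In myofibroblast-like cells, 10 of 30 members tested were higher and 0 were lower in TNF-Tg, against 5.79% and 4.74% of all genes tested. No member had an unadjusted p below 0.05 toward lower levels (11.1% of all genes), and DESeq2 called 0 lower (3.18% of all genes). The median log2 fold change, 0.61 over the members and -0.01 over all genes, was the highest of the 8 main classes. Ifi47 was at 2.47, 1.38 and 3.07 CPM in WT libraries, compared with 50.4, 65.8 and 70.5 CPM in those of TNF-Tg (4.53 on the log2 scale with SE 0.342, edgeR adjusted p = 1.02e-05). Lgals3bp stood at 23.8, 26.1 and 30 CPM in WT libraries, compared with 84, 153 and 80 CPM in those of TNF-Tg (1.9 on the log2 scale with SE 0.261, edgeR adjusted p = 0.000618). Gbp6 was at 13.2, 5.5 and 13.1 CPM in WT libraries, compared with 31.2, 28.5 and 40.7 CPM in those of TNF-Tg (1.52 on the log2 scale with SE 0.323, edgeR adjusted p = 0.00906). All 3, including Lgals3bp, a secreted galectin-binding glycoprotein, were higher in every TNF-Tg library than in any WT library, and Ifi47 was close to absent in WT.

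Iigp1 was at 62.5, 92.1 and 86.8 CPM in WT libraries, compared with 158, 125 and 155 CPM in those of TNF-Tg (0.83 on the log2 scale with SE 0.18, edgeR adjusted p = 0.0107). Irf1 stood at 39.5, 44 and 39.9 CPM in WT libraries, compared with 78, 76.5 and 70.5 CPM in those of TNF-Tg (0.82 on the log2 scale with SE 0.176, edgeR adjusted p = 0.00966). Gbp5 was at 9.04, 13.8 and 14.6 CPM in WT libraries, compared with 28.8, 37.4 and 33.9 CPM in those of TNF-Tg (1.36 on the log2 scale with SE 0.288, edgeR adjusted p = 0.00898). These members, together with Ifitm2 at 720.1, 755 and 686 CPM in WT as opposed to 819, 1179.6 and 1321 CPM in TNF-Tg (0.56 on the log2 scale with SE 0.165, edgeR adjusted p = 0.0485), moved opposite to their direction in gCAP-like cells. Bst2 rose from 84.7, 83.9 and 100.6 CPM in WT to 244, 254 and 248 CPM in TNF-Tg (1.41 on the log2 scale with SE 0.139, edgeR adjusted p = 5.88e-05). Isg15 (1.5) and Gbp9 (1.41) were the other members called, with log2 fold changes in parentheses. Isg15, Ifi47, Bst2, Gbp5 and Lgals3bp stayed called with any 1 library left out. The immune markers summed to 4.13 to 9.86 CPM in WT and 13.2 to 44.8 CPM in TNF-Tg. The megakaryocyte markers lay between 9.04 and 13.1 CPM in the WT libraries, whereas the TNF-Tg libraries of 8, 14 and 20 weeks held 9.6, 48 and 59.7 CPM, and the part of these markers was not tested. Without the cells that carried an immune marker UMI, 7 members were higher.

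In VSMC-like cells few members were called. Of 35 members tested, 2 were higher and 0 were lower, against 4.45% and 5.2% of all genes tested, and the median log2 fold change was 0.05 over the members and 0.00 over all genes. The shares of members called lay near the background. Irf1 was at 33.6, 35.5 and 23.4 CPM in WT libraries, compared with 42.9, 48.5 and 66.6 CPM in those of TNF-Tg (0.85 on the log2 scale with SE 0.227, edgeR adjusted p = 0.0485). Parp14 stood at 35.3, 35.5 and 30 CPM in WT libraries, compared with 48.6, 43.8 and 50.5 CPM in those of TNF-Tg (0.55 on the log2 scale with SE 0.147, edgeR adjusted p = 0.0477). Both genes separated the genotypes, but neither was called without any 1 library other than the TNF-Tg library of 8 weeks, in whose absence 3 members were higher and 2 lower (8.57% and 10.4% of all genes). At an unadjusted p below 0.05, 7 members were higher and 3 lower (12.3% and 13% of all genes), and DESeq2 called 1 higher and 0 lower (4.47% and 5.52% of all genes). The immune markers summed to 6.68 to 15.4 CPM in WT and 6.74 to 38.4 CPM in TNF-Tg, and 4 members were higher and 0 lower without the cells that carried them.

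Ifit2 in VSMC-like cells was at 16.8, 23.2 and 16.7 CPM in WT as opposed to 12.1, 8.62 and 6.23 CPM in TNF-Tg, without overlap but short of the threshold (-1.03 on the log2 scale with SE 0.303, edgeR adjusted p = 0.0673). Gbp2 was at 46.8, 37.1 and 45.1 in WT against 57.8, 52.1 and 57.5 CPM in TNF-Tg (0.4 on the log2 scale with SE 0.145, edgeR adjusted p = 0.125), Gbp7 at 63.6, 72.6 and 43.4 in WT against 46.8, 36.2 and 34.4 CPM in TNF-Tg, and Iigp1 at 89.2, 61.8 and 58.4 in WT against 84.8, 56.3 and 76.2 CPM in TNF-Tg. Gbp2 was higher in all TNF-Tg libraries without a call, whereas Iigp1 overlapped. Ifitm3 (1479.9, 1323 and 1379 against 1479, 1814 and 1771 CPM), Ifitm2 (632, 647 and 665 against 570.3, 632 and 672 CPM) and Bst2 (174, 161 and 128 against 201, 199 and 144 CPM) were not called.

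The WT library of 8 weeks had the highest WT values of several members in VSMC-like cells. Isg15 was at 102, 40.1 and 17.5 CPM in WT as opposed to 78, 76.2 and 38.8 CPM in TNF-Tg, Ifit3 at 69.8, 17 and 15 in WT against 25.2, 18.6 and 20.9 CPM in TNF-Tg, and Ifit1 at 19.4, 9.26 and 3.34 in WT against 13.8, 20.9 and 17.1 CPM in TNF-Tg. Stat2 (25.6, 13.9 and 9.18 against 18.1, 12.8 and 13.1 CPM), Irf9 (28.3, 24.7 and 13.4 against 26.2, 17 and 21.5 CPM) and Ddx58 (40.6, 15.4 and 24.2 against 41.5, 43.4 and 36.2 CPM) also had their highest WT value at 8 weeks. The spread among WT libraries was therefore wide for these genes, and none was called. Ifih1 (22.1, 18.5 and 12.5 against 15.2, 15 and 15.7 CPM), Oasl2 (21.2, 13.9 and 9.18 against 20.9, 16.7 and 15.9), Eif2ak2 (12.4, 9.26 and 23.4 against 19.9, 24.9 and 21.1), Samhd1 (39.8, 43.2 and 34.2 against 41.1, 37.7 and 45.2), Ifi35 (55.7, 54 and 61.8 against 64.5, 56.7 and 46.4), Ifi47 (21.2, 20.1 and 10 against 22.3, 28.9 and 23.1), Irgm1 (30.9, 29.3 and 18.4 against 17, 15.6 and 19.9) and Gbp3 (18.6, 23.2 and 14.2 against 23.8, 14.8 and 17.3) were not called, and Zbp1 (2.65, 3.09 and 0 against 3.9, 5.79 and 10.5 CPM) was not tested.

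In Col14+ fibroblast-like cells, the adventitial matrix fibroblasts, 0 of 39 members were called in either direction by edgeR or DESeq2, where 0.708% of all genes were called higher and 1.96% lower, and 6 members were higher and 0 lower at an unadjusted p below 0.05 (6.12% and 7.06% of all genes). DESeq2 called 0.794% of all genes higher and 2% lower there. In mesothelial-like cells, which line the lung surface, edgeR called 0 of 38 members, where 0.262% of all genes were called higher and 0.153% lower, although 11 members were higher and 0 lower at an unadjusted p below 0.05 (6.3% and 7.45% of all genes). There, DESeq2 called 3 members higher and 0 lower, against 1.11% and 0.96% of all genes. The median log2 fold change was 0.44 over the members and 0.01 over all genes in mesothelial-like cells, and 0.24 and 0.00 in Col14+ fibroblast-like cells. The mesothelial-like range of the genotypes did not overlap for 13 members, all higher in TNF-Tg, against 7.61% of all genes higher and 11.2% lower. The immune markers summed to 0 to 8.59 CPM in WT and 2.69 to 42.5 CPM in TNF-Tg mesothelial-like cells, and the megakaryocyte markers to 3.43 to 10.7 and 10.5 to 41.9 CPM.

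Smaller classes gave few tests. Libraries with fewer than 10 cells of a class were left out of its fit, which removed the WT library of 14 weeks from proliferating-like cells, the WT library of 8 weeks from lymphatic endothelial-like cells, and the TNF-Tg library of 20 weeks from pericyte-like cells. In pericyte-like cells 13 members were tested and Bst2, Iigp1 and Ifitm3 were higher, with log2 fold changes of 1.88, 1.06 and 0.88, against 8.91% of all genes higher and 7.04% lower. edgeR called 0 members in proliferating-like (42 tested), lymphatic endothelial-like (24), epithelial-like (17) and immune-like cells (19), where it called 0.0816% of all genes higher and as many lower in proliferating-like, 0.88% higher and 0.503% lower in lymphatic endothelial-like, and 0 genes in epithelial-like and immune-like cells. At an unadjusted p below 0.05, 5 members were lower in proliferating-like, 5 higher in epithelial-like and 12 lower in immune-like cells, the last with 14 to 21 cells per WT library and 43 to 755 per TNF-Tg library. In lymphatic endothelial-like cells 2 were higher and 2 lower. At that threshold, the shares of all genes higher and lower were 8.28% and 6.62% in proliferating-like, 6.01% and 6.68% in lymphatic endothelial-like, 5.2% and 3.9% in epithelial-like, and 4.65% and 3.61% in immune-like cells. DESeq2 was not run in these classes.

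Whether the genotype difference itself differed between classes was tested within libraries (class by genotype term, edgeR quasi-likelihood test with the library as a block). Against gCAP-like cells, the difference was higher in VSMC-like cells for 7 of 42 members and lower for 1, with 3.95% and 5.24% of all genes called in these directions. The median of this difference was 0.54 over the members and -0.01 over all genes. It was largest for Gbp2 (difference of log2 fold changes 1.93, SE 0.170, edgeR adjusted p = 0.000624) and Iigp1 (1.40, SE 0.141, edgeR adjusted p = 0.00112), followed by Irf1 (1.26, SE 0.276, edgeR adjusted p = 0.0226), Samhd1, Gbp7, Ifitm3 and Parp14. Ifit2 ran the other way (-1.98, SE 0.4, edgeR adjusted p = 0.0167). The number of members with a higher difference ranged from 2 to 11 with 1 library left out. It was 2 without the WT library of 14 or of 20 weeks, 3 without the WT library of 8 or the TNF-Tg library of 14 weeks, 4 without the TNF-Tg library of 20 weeks, and 11 without the TNF-Tg library of 8 weeks (1.2% to 2.68% of all genes in the first 5 of these fits and 6.94% in the last), and the lower difference of Ifit2 was not called without the WT library of 8 or of 14 weeks.

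The same test against the other classes was added after the data had been seen. Between the 2 capillary classes, the genotype difference was higher in aCAP-like than in gCAP-like cells for 27 of 42 members and lower for 1 (Ifi35), with 10.8% and 11.1% of all genes called. The differences were largest for Oas2 (2.70), Gbp5 (1.99), Ifitm3 (1.79), Gbp7 (1.30) and Ifit3b (1.25) on the log2 scale, and 15 members were called higher without the WT library of 14 weeks and 16 without that of 20 weeks (5.87% and 6.12% of all genes), while the call of Ifi35 was lost without the WT library of 8 or 20 weeks or the TNF-Tg library of 14 weeks. Against gCAP-like cells, the difference was also higher for 18 of 42 members in Col13+ fibroblast-like cells (5.89% of all genes), 14 of 42 in Col14+ fibroblast-like cells (5.86%), 18 of 42 in myofibroblast-like cells (4.67%) and 6 of 43 in mesothelial-like cells (1.91%, and 2.08% lower). Gbp2, Gbp7, Samhd1 and Irf1 were among them in each of these 4 classes and in VSMC-like cells. The difference was lower for Ifit2 in both fibroblast-like classes (6.97% of all genes in Col13+ and 7.14% in Col14+) and for no other member of these 4 classes. Between A/V-like and gCAP-like cells the difference was called for few members, with 2 higher (Gbp7 and Ifitm3) and 2 lower (Zbp1 and Ifi44) of 43, against 5.17% and 4.99% of all genes.

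**Figure D4:**
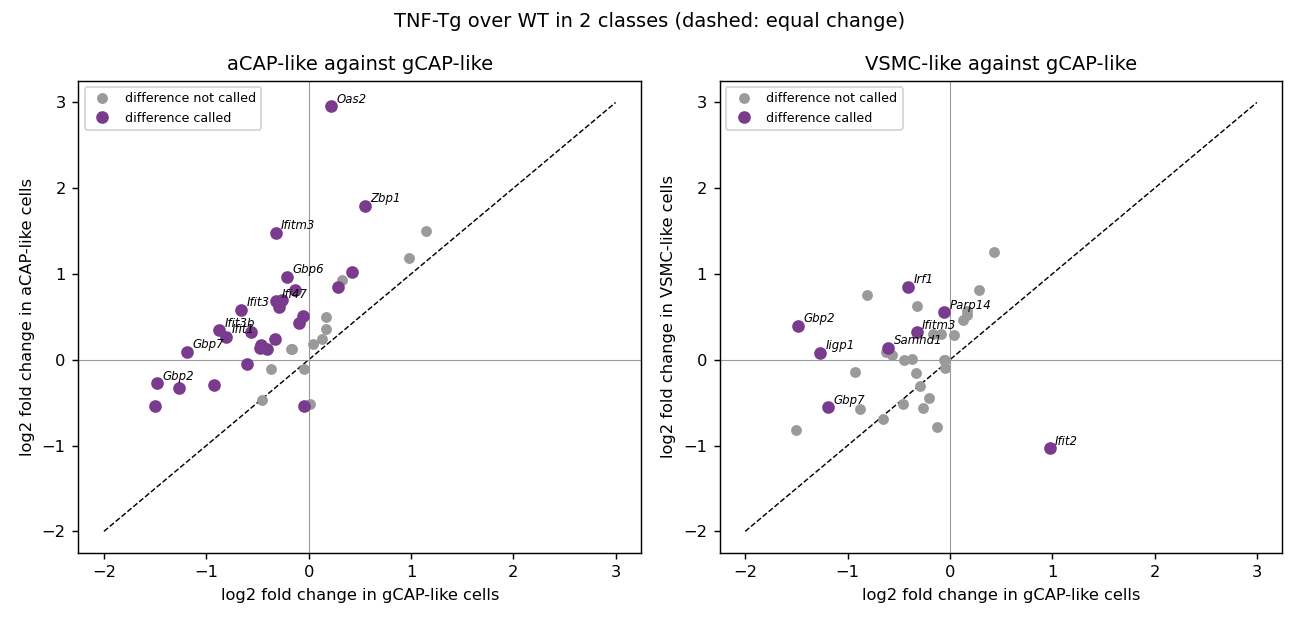
Log2 fold change of each member, TNF-Tg over WT, in gCAP-like cells (x axis) against aCAP-like (left, y axis) or VSMC-like cells (right, y axis), with the dashed line at equal change and purple points where the class by genotype term was called (names for up to 10). Most aCAP-like points lie above the line, many of them called, and Ifit2 lies far below the line in VSMC-like cells. Members not tested in a class, such as Gbp5 in aCAP-like cells, are not plotted for it.

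Age entered the comparisons through the libraries. In gCAP-like cells, 35 of 42 members had their highest TNF-Tg level at 8 weeks and 17 their highest WT level, and the median log2 ratio to the WT library of the same age was -0.03 at 8, -0.31 at 14 and -0.46 at 20 weeks. In A/V-like cells, 41 of 42 members were highest at 8 weeks among TNF-Tg libraries and 25 among WT libraries, with median ratios of -0.11, -0.43 and -0.49. aCAP-like cells went the other way, with 0.09, 0.20 and 0.57, and VSMC-like cells with -0.10, 0.07 and 0.47. Myofibroblast-like cells showed no single order (0.75, 0.44 and 0.63), and in Col14+ fibroblast-like and mesothelial-like cells the ratio was highest at 8 weeks (0.75, -0.11 and 0.01, and 0.93, 0.32 and 0.18). Col13+ fibroblast-like cells had 0.68, 0.60 and 0.24. The libraries of 8 weeks were processed with another Cell Ranger version (5.0.0, against 6.0.1 at 14 and 20 weeks), which cannot be told apart from age. No effect of age was tested.

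**Figure D5:**
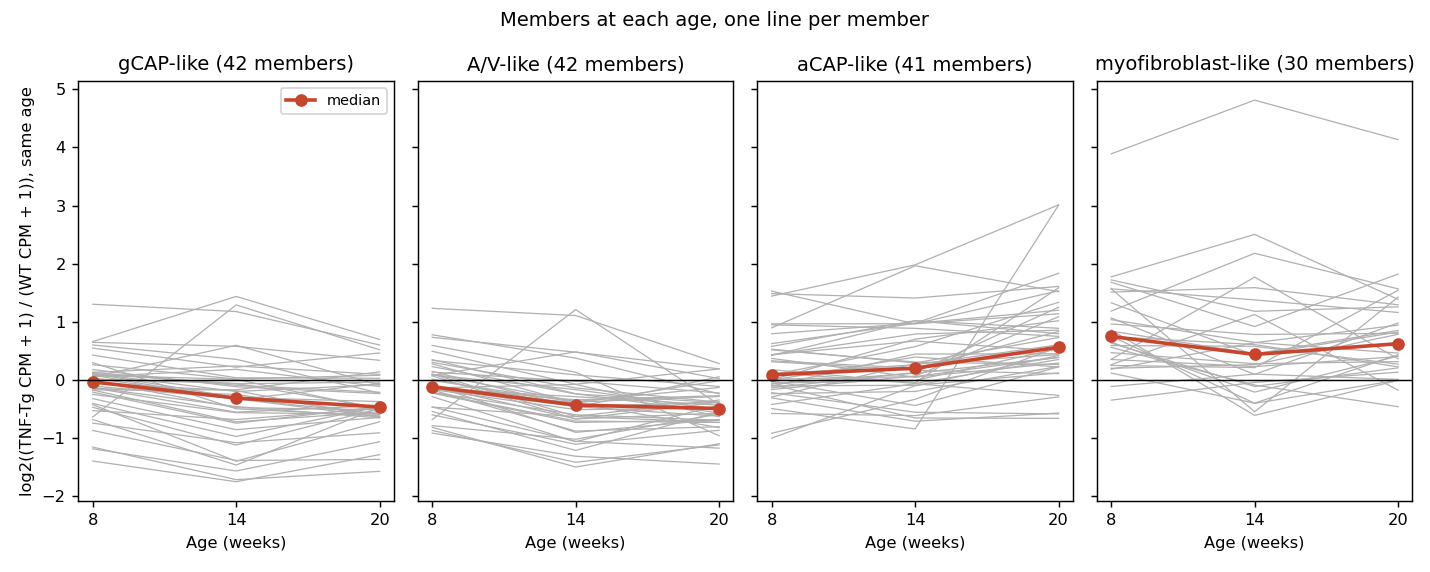
Log2 ratio of TNF-Tg to WT libraries of the same age, with 1 CPM added to both (y axis), at 8, 14 and 20 weeks (x axis), one grey line per member tested and the median in red, in 4 cell classes. The median falls from -0.03 to -0.46 in gCAP-like cells and rises from 0.09 to 0.57 in aCAP-like cells.

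The per-cell view was taken after each cell was thinned to 2000 UMIs, because the TNF-Tg libraries held more UMIs per cell. Cells below that number were left out, so that 2763 of 3194 gCAP-like cells remained in the WT library of 8 weeks. A gCAP-like cell then held on average 7.06 to 7.19 detected members in WT and 6.99, 5.95 and 5.89 in TNF-Tg libraries at 8, 14 and 20 weeks. Unthinned, the order was reversed, with medians of 10 members in each WT library and 15, 13 and 13 in TNF-Tg. In aCAP-like cells the thinned means were 4.67 to 5.17 in WT and 5.38 to 6.15 in TNF-Tg, in myofibroblast-like cells 3.21 to 3.34 and 4.46 to 4.59, in Col13+ fibroblast-like cells 3.64 to 3.90 and 4.41 to 4.67, and in mesothelial-like cells 4.20 to 5.17 and 6.03 to 6.16. In these 4 classes every TNF-Tg library lay above every WT library. VSMC-like cells held 3.01 to 3.31 members in WT and 3.30 to 3.33 in TNF-Tg. Almost every cell held at least 1 member, with at most 4.55% of cells at none in any library of the 8 classes.

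The ligands were all but absent from these cells. Of 15 interferon genes with a row, counting over all 36254 cells, 22 UMIs fell in WT and 34 in TNF-Tg, and none could be tested. Ifnb1, encoding interferon beta, had 17 UMIs in WT, all in 1 gCAP-like cell of 8 weeks. Ifng, encoding interferon gamma, had 2 UMIs in WT and 33 in TNF-Tg, of which 30 came from 16 immune-like cells of the TNF-Tg library of 20 weeks, and 0 in the 8 main classes. A count of 0 limits only what was captured in these sorted cells.

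Receptor genes rose in TNF-Tg in several classes and fell in none of the 8. In gCAP-like cells, 3 of 5 tested were higher (22.0% of all genes), of which Ifnar1 (type I receptor) was at 69.5, 72.1 and 79.5 CPM in WT as opposed to 114, 129.96 and 131 CPM in TNF-Tg (0.77 on the log2 scale with SE 0.0953, edgeR adjusted p = 0.00127). In aCAP-like cells, 3 of 5 were higher (Ifnar1, Ifnar2 and Ifngr1), against 12.6% of all genes. Ifngr2, a chain of the interferon gamma receptor, was higher in gCAP-like, A/V-like, VSMC-like, Col13+ fibroblast-like, myofibroblast-like and mesothelial-like cells, and in VSMC-like cells was at 56.5, 52.5 and 46.7 in WT against 117, 138 and 114 CPM in TNF-Tg (1.29 on the log2 scale with SE 0.144, edgeR adjusted p = 0.00274). Receptor levels and the module thus did not share a direction in gCAP-like cells, where the kinase gene Tyk2 (19.5, 20.3 and 20.8 against 13.4, 9.57 and 11 CPM, log2 fold change -0.83) fell and Jak1 (0.46) rose.

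Among the other transcription factors read, Irf5, low in WT, was higher in gCAP-like (4.36), aCAP-like (4.49), VSMC-like (3.29) and myofibroblast-like cells (3.2), as were Irf8 in myofibroblast-like cells (3.38) and Stat3 in Col13+ fibroblast-like cells (0.71), with log2 fold changes in parentheses. Irf3 was lower in gCAP-like cells, at 66.4, 59.7 and 74.5 CPM in WT as opposed to 46.9, 49.7 and 47 CPM in TNF-Tg (-0.48 on the log2 scale with SE 0.0931, edgeR adjusted p = 0.00639), where Stat3, Irf2 and Irf8 were not called. Among inhibitors of the pathway, Pias1 fell in gCAP-like (-0.44) and A/V-like cells (-0.48), Socs3 fell in gCAP-like (-0.68) and aCAP-like cells (-0.67), and the phosphatase gene Ptpn2 rose in both (0.6 and 0.67).

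Antigen presentation genes, which interferon gamma in particular induces, also split by class. Of 12 tested in gCAP-like cells, 6 were lower and 0 higher (Tap1, Tapbp, Psmb9, H2-K1, H2-D1 and Nlrc5), and in A/V-like cells 3 of 12 were lower, against 20.9% and 10.1% of all genes. In aCAP-like cells 1 of 12 was higher, with a median log2 fold change of -0.01 over the list. In VSMC-like cells 8 of 11 were higher, in Col13+ fibroblast-like cells 8 of 11, and in myofibroblast-like cells 11 of 11, against 4.45%, 7.88% and 5.79% of all genes. In myofibroblast-like cells H2-K1 was at 279, 326 and 290.4 CPM in WT libraries, compared with 1329, 2096 and 1895 CPM in those of TNF-Tg (2.52 on the log2 scale with SE 0.174, edgeR adjusted p = 4.78e-06). In gCAP-like cells it was at 2423, 2489.7 and 2425 in WT against 2162, 1618 and 1419 CPM in TNF-Tg (-0.5 on the log2 scale with SE 0.147, edgeR adjusted p = 0.0299). H2-K1 therefore separated the genotypes in both classes in opposite directions. VSMC-like cells, in which 2 of the listed interferon-stimulated genes were called, had H2-K1 at 349.9, 358 and 266 in WT against 526, 651 and 586 CPM in TNF-Tg (0.91 on the log2 scale with SE 0.141, edgeR adjusted p = 0.00631).

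Cxcl10, a chemokine induced by interferon gamma and TNF together, rose in 6 classes, with log2 fold changes of 2.57 in gCAP-like, 4.43 in aCAP-like, 7.14 in VSMC-like, 5.14 in Col13+ fibroblast-like, 3.35 in myofibroblast-like and 1.43 in mesothelial-like cells. In VSMC-like cells it was at 0.884, 0 and 0.835 CPM in WT as opposed to 133, 128 and 31.4 CPM in TNF-Tg (7.14 on the log2 scale with SE 1, edgeR adjusted p = 0.0047). A list of 13 NF-κB targets of TNF, read for comparison, had 11 of 13 higher in gCAP-like, 9 of 12 in A/V-like, 7 of 8 in aCAP-like, 10 of 10 in VSMC-like, 9 of 10 in Col13+ fibroblast-like, 9 of 9 in myofibroblast-like, 2 of 10 in Col14+ fibroblast-like and 3 of 9 in mesothelial-like cells. The shares of all genes called higher in these classes were 22.0%, 11%, 12.6%, 4.45%, 7.88%, 5.79%, 0.708% and 0.262%, in the same order.

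Promoter matches were set beside the calls. In gCAP-like cells, 10 of 20 tested members with the ISRE core and 4 of 12 without it were lower, 1 and 2 were higher, and the median log2 fold changes were -0.46 and -0.11. In aCAP-like cells, 3 of 19 with the core and 4 of 12 without it were higher, with medians of 0.27 and 0.32. Among the stretches printed above, those of Igtp, Gbp7, Stat2 and Ifit1 belong to members that were lower in gCAP-like cells, that of Oas1a to a member that was higher, and those of Isg15, Bst2 and Ifit3 to members that were not called. Members with the core were thus found in both directions, and whether a factor bound there was not tested.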

How the data were processed

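Lung cells of WT and TNF-Tg mice were profiled by droplet 3′ RNA sequencing in 6 libraries, 1 per genotype at 8, 14 and 20 weeks. The authors aligned reads to mm10 and deposited raw UMI counts per gene and cell barcode from Cell Ranger (5.0.0 at 8 weeks, 6.0.1 at 14 and 20 weeks per the file headers, the same for both genotypes of an age). Cells with at least 500 genes and at most 10% mitochondrial UMIs were kept (36254 of 43545 barcodes), after removal of 1954 putative doublets with Scrublet in scanpy 1.11.5 at 0.8% per 1000 cells. Libraries were integrated with Seurat 5.3.0 (CCA, 2000 variable genes, 30 dimensions, resolution 0.8), with 190 genes, the members among them, kept out of the variable genes. Clusters were named from marker lists. A gene of the wider pathway is not reported here.

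Raw counts were summed per class and library where at least 10 cells were present, filtered with filterByExpr, scaled by TMM and tested with edgeR 4.0.16 (quasi-likelihood, TNF-Tg against WT, Benjamini-Hochberg over all genes of the class, called below 0.05, two-sided) in R 4.3.3. The study compared genotypes with cells as units, which is no test over libraries, so sums per library were used instead. CPM divides a gene's UMIs by all UMIs of the class in a library, without TMM, so fold changes can differ from ratios of CPM. UMIs are 3′ counts, so tests compared levels within a gene only, whereas the summed levels and the rankings by CPM also span genes. Scripts were tested on simulated counts. The members, role groups, pathway lists and tests were chosen with earlier results of these data known.

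Values in every library are given for up to 3 members of each role group with the highest CPM in gCAP-like and VSMC-like cells, up to 3 called members per direction and class with the largest fold change among those with at least 10 CPM, members called in opposite directions, and up to 5 members with the largest class by genotype difference. Promoters were RefSeq sequences (GRCm38.p6), and gene positions came from the GENCODE annotation of the same build.

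Same-age libraries of the genotypes deviated together from their genotype means in gCAP-like (r over genes 0.182, 0.187 and 0.130 at 8, 14 and 20 weeks), aCAP-like (0.242, 0.226 and 0.108) and Col14+ fibroblast-like cells (0.223, 0.101 and 0.132), which met the rule for a pairing. The same-age r was also positive at every age in myofibroblast-like (0.184, 0.0473 and 0.102), Col13+ fibroblast-like (0.168, 0.0619 and 0.0275) and mesothelial-like cells (0.278, 0.0586 and 0.299). At 14 weeks it was negative in A/V-like (-0.00863) and VSMC-like cells (-0.000409). These other classes were not taken to meet the rule. The reported tests carry no block for age. With the block, 17 members were lower and 4 higher in gCAP-like, 15 higher and 3 lower in aCAP-like and 0 in either direction in Col14+ fibroblast-like cells. The share of all genes called with the block is not given here. Alternatives were DESeq2 1.42.0, RLE or total-UMI scaling, no low-count filter, age as a replicate block, thinning to 1000 UMIs per cell, a stricter cell filter (1000 genes, 5% mitochondrial), coarser clusters (resolution 0.4), leaving out each library, and, added after the data had been seen, leaving out cells with an immune marker UMI and adding an unnamed capillary cluster.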

Additional observations from a re-analysis of the deposited data

Results flagged for a closer look

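For some members, the genotype difference itself differed between gCAP-like cells and other main classes, by the class by genotype term of edgeR. It was higher than in gCAP-like cells for 27 of 42 members in aCAP-like cells (10.8% of all genes) and 18 of 42 in Col13+ fibroblast-like cells (5.89%). The same held for 18 of 42 in myofibroblast-like (4.67%), 14 of 42 in Col14+ fibroblast-like (5.86%) and 7 of 42 in VSMC-like cells (3.95%). Fewer were higher in mesothelial-like (6 of 43, 1.91% of all genes) and A/V-like cells (2 of 43, 5.17%). The A/V-like share of members lay near that of all genes. All of these comparisons share the gCAP-like sums, so they are not independent of each other. The immune marker sums and the UMIs per cell were also higher in TNF-Tg gCAP-like cells, and their part in these differences was not tested.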

How the results depend on the processing

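The count of members called moved as follows in at least one setting, and the cause was not tested except where fewer members were tested. Apart from the DESeq2 shares given above, the share of all genes called under these settings is not given here. The counts therefore cannot be set against a background. With cells thinned to 1000 UMIs, 9 were lower in gCAP-like cells (42 members tested), 6 higher and 1 lower in aCAP-like (33 tested), 0 higher in A/V-like (35), 0 higher in VSMC-like (5), 0 higher and 0 lower in Col13+ fibroblast-like (5), 1 higher in myofibroblast-like (3) and 1 higher in mesothelial-like cells (6), so that in the last 4 classes most members were no longer tested. Without the filter on low counts, 13 were lower in A/V-like, 4 higher and 1 lower in VSMC-like, 4 higher in Col14+ fibroblast-like, 16 higher in myofibroblast-like and 7 higher in mesothelial-like cells. With age as a replicate block, 0 were higher and 17 lower in A/V-like, 1 higher in VSMC-like and 5 higher in mesothelial-like cells, and in no other main class did a count move by over 1.5 times. DESeq2 called 0 higher in A/V-like, 1 in VSMC-like and 3 in mesothelial-like cells. In VSMC-like cells 1 was higher with RLE scaling, 1 with the stricter cell filter and 0 with total UMIs, which also left 5 lower in A/V-like cells. Without cells carrying an immune marker UMI, 0 were higher and 4 lower in A/V-like, 4 higher in VSMC-like and 8 higher in Col13+ fibroblast-like cells.

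With 1 library left out, counts higher and lower ranged from 4 to 5 and 9 to 23 in gCAP-like, 12 to 16 and 1 to 4 in aCAP-like, 0 to 2 and 3 to 29 in A/V-like, 0 to 3 and 0 to 2 in VSMC-like, 6 to 12 and 1 to 1 in Col13+ fibroblast-like, 8 to 12 and 0 to 0 in myofibroblast-like and 0 to 1 and 0 to 0 in mesothelial-like cells. The genotype difference was higher than in gCAP-like cells for 15 to 29 members (lower for 0 to 1) in aCAP-like and 2 to 11 (0 to 1) in VSMC-like cells.

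Of 78 named member and class pairs, the 46 called ones kept their direction under every setting and 20 kept their call. Changes of sign, 35 in all, fell among uncalled pairs. In gCAP-like cells the log2 fold change became 0.156 (Isg15) and 0.00127 (Xaf1) without immune marker cells, 0.000987 (Oasl2) and -0.0493 (Bst2) with thinning, -0.0032 (Bst2) with coarser clusters and -0.0553 (Bst2) with the added capillary cluster. In VSMC-like cells it became -0.0372 for Irf9 with total UMIs, 0.0593 and 0.0396 for Ifi35 without the count filter or immune marker cells, -0.0109 for Iigp1 with the stricter filter, and 0.0565, 0.0968, 0.0196 and 0.0152 for Ifitm2 without the count filter, with thinning, with the stricter filter and without immune marker cells. With 1 library left out, values with a change of sign ranged in gCAP-like cells from -0.113 to 0.0147 (Parp14), -0.202 to 0.0335 (Isg15), -0.153 to 0.0287 (Xaf1), -0.0333 to 0.0865 (Bst2), and in VSMC-like cells from -0.281 to 0.303 (Irf9), -0.475 to 0.441 (Stat2), -0.153 to 1.32 (Isg15), -0.109 to 0.114 (Ifi35), -1.09 to 0.487 (Ifit3), -0.0514 to 0.324 (Iigp1), -0.375 to 0.0951 (Ifih1), -0.0634 to 0.0545 (Ifitm2), -0.132 to 0.212 (Gbp3).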

Other observations

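Proliferating-like cells, mostly of TNF-Tg origin, had a median log2 fold change of -0.28 over 42 members and 0.04 over all genes, with 0 members called by edgeR. Pericyte-like cells had a summed level of 41 members between 824 and 1039 CPM in the 3 WT libraries and of 1622 and 1401 CPM in the 2 TNF-Tg libraries with at least 10 cells. In immune-like cells the same sum was 2025, 2625 and 3673 CPM in WT at 8, 14 and 20 weeks and 2128, 1565 and 1203 CPM in TNF-Tg. The immune-like sums came from 18, 14 and 21 WT cells and from 43, 61 and 755 TNF-Tg cells. Genes leading this class include Lyz2, C1qa and Iglc3, so it joins unlike immune cells, whose shares per library were not compared. These sums were not tested.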
